A study of Rattus norvegicus with 8 samples.

Results

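The genes of translation initiation and elongation were described in cultured rat oligodendrocyte precursor cells, the dividing glial cells from which the myelin-forming cells of the brain arise. Members were the rows of the deposited expression table whose symbol begins with Eif and a digit from 1 to 6, or with Eef and a digit 1 or 2. The genes Eif1ax, Eif2s3, Eif2s3x and Eif2s3y were left out by the same rule. This gave 61 genes of the 32883 in the table, grouped below by the step of protein synthesis they serve. RNA sequencing was done on 4 male and 4 female cultures, called male 1 to male 4 and female 1 to female 4 after the numbers in their titles. All 8 came from the cerebral cortex of neonatal Sprague Dawley rats. In both sexes the cells were grown first as mixed glia in DMEM with serum, then collected as the cells that do not adhere and kept for some days in Neurobasal medium with glutamine, penicillin/streptomycin, B27, PDGF and FGF. Sex was the only factor that differed between the groups in the labels. Nothing in the labels says whether the cultures of 1 sex came from separate litters, so each p-value reflects no more than the spread among these 8 samples, part of which may be technical.

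Protein synthesis begins when initiation factors load the initiator tRNA onto the small ribosomal subunit, bring it to the capped end of an mRNA and let it scan to the start codon. Elongation factors then deliver each aminoacyl-tRNA to the ribosome (eEF1A), recharge that carrier with GTP (the eEF1B complex) and move the ribosome along by a codon (eEF2). The pathway is controlled mainly at the delivery of the initiator tRNA by eIF2, which 4 stress kinases can block, and at cap binding by eIF4E, which the eIF4E-binding proteins block until mTOR releases them. Growth factors such as PDGF act on the cap-binding step through mTOR, and inherited defects of eIF2B cause a disease of the white matter in humans.

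Levels are the authors' FPKM, which scales the fragments of a gene by transcript length and library size, and are given as mean ± SD over 4 libraries. Each difference is the male mean less the female mean of log2(FPKM + 1), given ± its standard error, a scale that understates the change of low genes. They were tested with limma over the 11263 genes that averaged 1 FPKM or more, and a gene passed at a Benjamini-Hochberg adjusted p under 0.05. Summed FPKM per library lay between 648383 and 773919, and relative depth, read from the steps between low values, between 0.303 and 1 times that of male 1. Absolute depth is unknown. The markers of oligodendrocyte precursors were present in every library, with the summed level of 6 marker genes (Pdgfra, Cspg4, Olig1, Olig2, Sox10 and Ptprz1) at 1971 to 2089 FPKM in male and 2331 to 2495 FPKM in female libraries. Of these, Pdgfra and Sox10 were higher in female cultures. Of 7 markers of differentiating oligodendrocytes 3 were higher in female cultures (Bcas1, Gpr17 and Myrf), and their sum was 445 to 521 FPKM in male and 633 to 808 FPKM in female libraries. Markers of other cells differed too. Of 7 tested microglia markers 6 were higher in female cultures, and the sum of 8 was 31.3 to 43.6 FPKM in male and 124 to 143 FPKM in female libraries. Of 11 tested neuron markers 4 were higher in male cultures (Gad1, Gad2, Syt1 and Stmn2), and the sum of 12 was 311 to 331 FPKM in male and 271 to 374 FPKM in female libraries, with Slc17a7 at 0 in all 8. Of 4 tested astrocyte markers none passed with limma (adjusted p from 0.341 to 0.754), and 0 had an unadjusted p under 0.05. The deviations of male 1 and of female 3 from the means of their sexes were correlated (r = 0.342 across 8390 genes, a description), so values without these 2 libraries are given where they differ.

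The translation factors as a group lay close together in male and female cultures. Of the 61 members 60 were tested, and 3 passed, which is 5% against 6.04% of all tested genes. Eef1a2 was higher in male cultures (1 member, where 3.14% of all tested genes were), and Eif2a and Eif4b were higher in female cultures (2 members, where 2.89% were). At an unadjusted p under 0.05 stood 12 members, or 20% against 21.2% of all tested genes. The values of the sexes did not overlap for 8 members, or 13.3% against 14.0%. In 5 of them the male values were all above the female ones (7.26% of all tested genes), and in 3 all below (6.77%). The median difference was -0.013 over the members and -0.0038 over all tested genes, with 29 members on the male and 31 on the female side. The size of the differences was small. It was under 0.2 on the log2 scale for 50 of the 60, or 83.3%, against 60.8% of all tested genes, and the 95% interval of the difference lay within 0.5 of 0 for 51. Members are mostly abundant genes, which are measured more precisely, with a median standard error of 0.087. Among genes averaging 10 FPKM or more, the median size of the difference was 0.10 over 53 members and 0.13 over 6417 tested genes. Without male 1 the female-higher members numbered 5, and without female 3 the male-higher ones numbered 2. Without both there were 2 male-higher and 5 female-higher members. The count over all genes, 680 in the main test, also rose, to 714 without male 1, 808 without female 3 and 882 without both. It dropped to 315, 296 and 359 when male 2, male 3 or male 4 was left out. With female 1, female 2 or female 4 left out it was 411, 516 and 318. Eef1a2, Eif2a and Eif4b passed with each of the 8 libraries left out in turn.

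**Figure D1:**
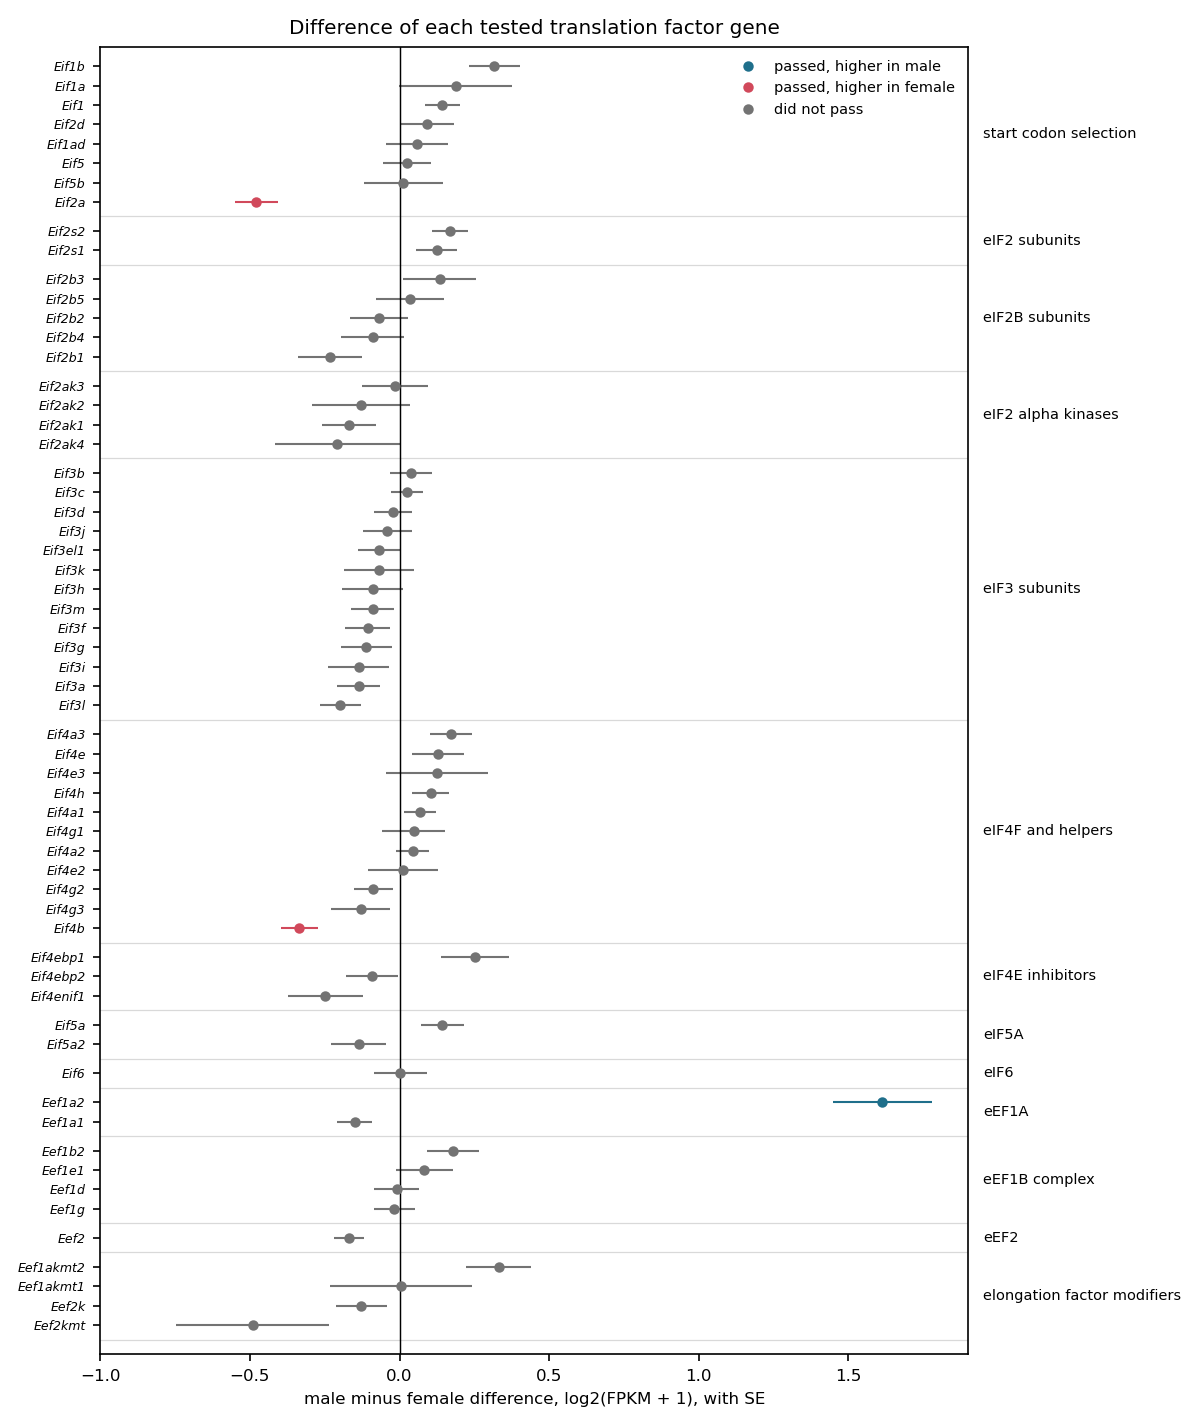
Difference of each tested translation factor gene, as the male less the female mean of log2(FPKM + 1) (points, with bars of 1 standard error), grouped by role. Most points lie within 0.2 of 0. Eef1a2 stands apart at 1.61, and Eif2a and Eif4b are the genes that passed on the female side.

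The elongation factor eEF1A, which carries aminoacyl-tRNA to the ribosome, is made from a pair of genes. Eef1a1 is used in most cell types, and Eef1a2 replaces it in mature neurons and in heart and skeletal muscle. The starts of both genes are shown with those of other members described below, to set their sequences beside their levels. They come from RefSeq (assembly GRCr8) and run from 70 bases before the annotated start of transcription through the first 30 bases from it, on the strand of the gene. Capitals mark a pyrimidine tract at the start (a C followed by at least 5 bases that are each C or T) and a TATAA motif upstream.
Eef1a2, chr3:188652604-188652703, minus strand: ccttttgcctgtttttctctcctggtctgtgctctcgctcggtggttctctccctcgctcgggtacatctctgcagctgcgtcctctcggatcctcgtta
Eef1a1, chr8:88225040-88225139, minus strand: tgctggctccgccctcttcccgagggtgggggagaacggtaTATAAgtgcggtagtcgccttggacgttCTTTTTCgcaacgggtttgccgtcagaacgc
Eef2, chr7:9189209-9189308, minus strand: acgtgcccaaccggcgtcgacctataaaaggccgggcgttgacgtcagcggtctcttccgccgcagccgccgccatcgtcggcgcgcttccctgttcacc
Eef1b2, chr9:72074021-72074120, plus strand: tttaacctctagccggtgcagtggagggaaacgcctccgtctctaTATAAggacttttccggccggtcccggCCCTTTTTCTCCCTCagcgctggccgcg
Eif2a, chr2:144911290-144911389, plus strand: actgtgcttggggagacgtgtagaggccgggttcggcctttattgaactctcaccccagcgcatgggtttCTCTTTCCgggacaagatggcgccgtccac
Eif1b, chr8:129081088-129081187, plus strand: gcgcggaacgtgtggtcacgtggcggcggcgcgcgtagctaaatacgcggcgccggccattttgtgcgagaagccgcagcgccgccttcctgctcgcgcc

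Eef1a2 (ENSRNOG00000012477) was at 9.88, 6.48, 7.77 and 8.39 FPKM in the male libraries 1 to 4, against 1.43, 2.37, 1.88 and 2.24 FPKM in female 1 to female 4. Every male library lay above every female one, and the lowest male value was well over the highest female one. Its mean was 8.13 ± 1.41 FPKM in male and 1.98 ± 0.420 FPKM in female cultures (n = 4 each), 4.10 times as high in male cultures, with a log2 difference of 1.61 ± 0.16 (95% interval 1.25 to 1.98, limma adjusted p = 0.000502). By size this difference ranked 57 among the 11263 tested genes, and by p it ranked 19. Eef1a2 had been seen among the largest differences of these data before it was described here, so its values are a description of a known difference. Neuron markers moved with it in part, since Gad1, Gad2, Syt1 and Stmn2 were higher in male cultures. The neuron markers Rbfox3, Tubb3, Map2, Nefm, Nefl and Syp did not pass (limma adjusted p from 0.516 to 0.835), nor did Snap25 (adjusted p = 0.0562). The part of neurons in the level of Eef1a2 was not tested. In bulk cultures more cells that express a gene and more RNA of it per cell cannot be told apart.

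Eef1a1 (ENSRNOG00000009439), the most abundant member, was at 5572, 5134, 5021 and 4935 FPKM in the male libraries 1 to 4, against 5629, 5567, 5933 and 5779.9 FPKM in female 1 to female 4. The groups touched, as male 1 stood just above female 2, and the other male libraries lay below all female ones. The difference of -0.15 ± 0.06 did not pass (limma adjusted p = 0.158). It passed without male 1 (-0.19, adjusted p = 0.0461), without male 1 and female 3 (-0.17, adjusted p = 0.02) and with relative depth as a covariate (-0.18, adjusted p = 0.024), and did not pass under the other alternatives run. Among these, quantile normalization gave Eef1a1 the same mean in both sexes (difference -2.8e-15), so that alternative could not show a difference. Processed copies of Eef1a1 are common in mammalian genomes, and how the authors assigned reads shared by such copies is not given in the sources used here.

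The ratio of Eef1a1 to Eef1a2 was 564, 792, 646 and 588 in male 1 to male 4 and 3929.5, 2348, 3153 and 2581 in female 1 to female 4. Eef1a2 therefore made up 0.126% to 0.177% of the summed FPKM of the pair in male libraries and 0.0254% to 0.0426% in female libraries. In all 8 cultures nearly all eEF1A mRNA was Eef1a1. On the log2 scale the ratio averaged 9.33 ± 0.22 in male and 11.52 ± 0.33 in female cultures, a difference of -2.20 (p = 0.0286 by exact two-sided permutation, which with 70 assignments cannot go lower). Adjusted over 3 paralog ratios the p was 0.0858. The groups did not overlap, and the ratio rests mainly on Eef1a2, whose levels differed 4.10 times between the sexes where those of Eef1a1 differed 1.11 times. As Eef1a2 was already known to differ in these data, the test of the ratio adds no separate evidence.

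For comparison, the ratios of 2 other paralog pairs differed less. The RNA helicase genes Eif4a1 and Eif4a2 stood at a ratio of 4.18, 4.02, 4.06 and 4.02 in male 1 to male 4 and of 3.88, 3.88, 4.21 and 4.04 in female 1 to female 4. These values overlapped throughout (log2 difference 0.024, exact two-sided permutation test, p = 0.6, adjusted 0.6). For Eif5a and Eif5a2 the ratio was 58.9, 44.9, 41.8 and 43.1 in male 1 to male 4 and 37.0, 35.4, 44.9 and 36.7 in female 1 to female 4. Male 1 and female 3 were the highest of their groups, and female 3 reached the range of the male libraries (log2 difference 0.29, exact two-sided permutation test, p = 0.0857, adjusted 0.129).

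**Figure D2:**
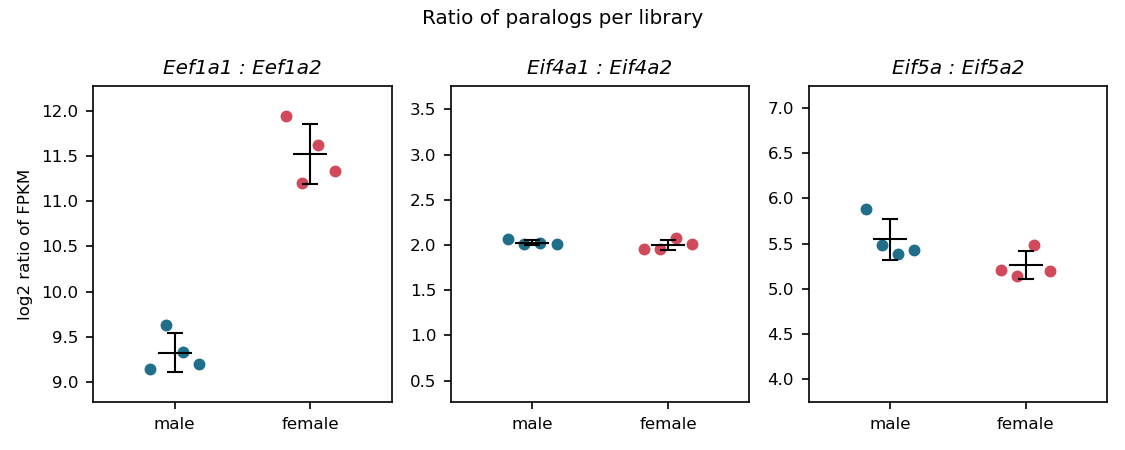
Log2 ratio of the FPKM values of 3 paralog pairs in 4 male (left) and 4 female (right) libraries, with the mean and SD of each group in black. All 3 panels span the same number of log2 units. The Eef1a1 to Eef1a2 ratio is 9.33 in male and 11.52 in female cultures, while the other pairs overlap.

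eEF2, the factor that moves the ribosome along the mRNA, had male values that all lay below the female ones. Eef2 (ENSRNOG00000020266) was at 1644, 1562, 1561 and 1512 FPKM in the male libraries 1 to 4, against 1748, 1724, 1793 and 1791 FPKM in female 1 to female 4. Despite the lack of overlap the difference of -0.17 ± 0.05 did not pass (limma adjusted p = 0.0841). It passed without male 1 (-0.19, adjusted p = 0.0386), without male 1 and female 3 (-0.18, adjusted p = 0.0217) and with relative depth as a covariate (-0.19, adjusted p = 0.0221). Eef2k, which encodes the kinase that inactivates eEF2, averaged 16.1 ± 0.734 FPKM in male and 17.7 ± 1.02 FPKM in female cultures (adjusted p = 0.447).

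The eEF1B complex reloads eEF1A with GTP. Of the 4 genes grouped here with it by symbol, none passed with limma and 0 had an unadjusted p under 0.05. Over all tested genes these shares were 6.04% and 21.2%. The group includes Eef1e1, which is not a subunit of the complex. Eef1g, a structural subunit, averaged 1087 ± 56.4 FPKM in male and 1101 ± 92.6 FPKM in female cultures (difference -0.017, adjusted p = 0.921, 95% interval -0.17 to 0.14). The exchange subunit gene Eef1b2 averaged 373 ± 31.2 FPKM in male and 330.1 ± 34.8 FPKM in female cultures (0.18 ± 0.09, adjusted p = 0.269). Mean levels over the 8 libraries were far apart, at 1094 FPKM for Eef1g, 352 for Eef1b2, 97.9 for Eef1d and 27.0 for Eef1e1. Among the enzymes that modify elongation factors, Eef1akmt2, a lysine methyltransferase gene of eEF1A, was at 15.2, 12.7, 13.4 and 14.99 FPKM in the male libraries 1 to 4, against 9.45, 11.4, 12.1 and 11.1 FPKM in female 1 to female 4. The groups did not overlap, yet the difference of 0.33 ± 0.11 did not pass (limma adjusted p = 0.104). Eef2kmt, the methyltransferase gene of eEF2, was near the lower limit of the test at 1.08 ± 0.696 FPKM in male and 1.86 ± 0.611 FPKM in female cultures (-0.49 ± 0.26, adjusted p = 0.304). For Eef1akmt1 the female libraries split, with 9.64 and 10.9 FPKM in female 1 and female 2 and 20.2 and 21.0 FPKM in female 3 and female 4, while the male ones ran from 13.1 to 17.6 FPKM.

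**Figure D3:**
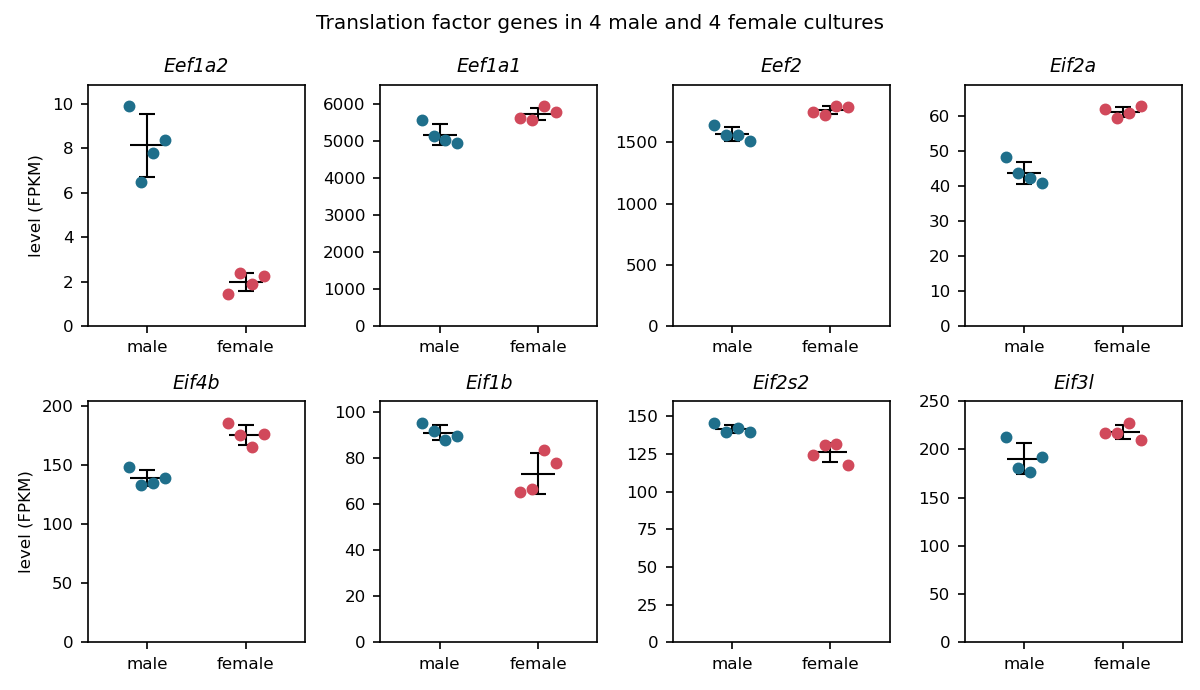
Levels in FPKM of 8 translation factor genes in 4 male (left) and 4 female (right) libraries, with the mean and SD of each group in black and axes that start at 0. Eef1a2 is several times as high in male cultures, whereas the other genes differ by less than 1.5 times.

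Among the genes of initiation, those grouped with the choice of the start codon are given first. In this role Eif2a, which encodes eIF2A, a factor that can bring an initiator tRNA to the ribosome without eIF2 and is distinct from the eIF2 alpha subunit, was lower in male cultures. Eif2a (ENSRNOG00000013393) was at 48.2, 43.7, 42.2 and 40.7 FPKM in the male libraries 1 to 4, against 61.9, 59.5, 60.7 and 62.7 FPKM in female 1 to female 4. Every male library lay below every female one, and the female values kept within a narrow range. Means were 43.7 ± 3.22 FPKM in male and 61.2 ± 1.40 FPKM in female cultures, 1.40 times as high in female cultures (-0.48 ± 0.07, 95% interval -0.64 to -0.32, limma adjusted p = 0.00443).

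The other 7 genes grouped with start codon selection, with Eif1ad placed there by its symbol, lay on the male side without passing. Of all 11263 tested genes 5557 were on the male side. Nearest to the threshold, and described for that reason after its values were seen, was Eif1b, a close relative of the scanning factor gene Eif1, at 95.4, 91.7, 88.2 and 89.6 FPKM in the male libraries 1 to 4, against 65.2, 66.7, 83.4 and 78.1 FPKM in female 1 to female 4. All male values were above all female ones, with female 3 the closest (0.32 ± 0.09, limma adjusted p = 0.0535). Eif1b passed without female 3, without male 1 and female 3, with a minimum mean of 5 FPKM and with quantile normalization. Eif1 itself, which keeps the scanning ribosome from stopping at a wrong codon, averaged 202 ± 3.09 FPKM in male and 183 ± 10.1 FPKM in female cultures, also without overlap (0.14 ± 0.06, adjusted p = 0.189). Eif5, which triggers GTP hydrolysis by eIF2 at the start codon, and Eif5b, which joins the large ribosomal subunit, differed by 0.025 and 0.013 (adjusted p = 0.898 and 0.97). Eif1a was uneven, with male 3 at 26.0 FPKM and female 2 at 21.9 FPKM against 13.1 to 16.7 FPKM elsewhere. Its symbol is close in name and sequence to that of the excluded Eif1ax, so reads may be shared between them.

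The genes of the eIF2 alpha and beta subunits, Eif2s1 and Eif2s2, were slightly to the male side. Eif2s2 was at 146, 139.7, 142 and 139.5 FPKM in the male libraries 1 to 4, against 124, 131, 132 and 118 FPKM in female 1 to female 4. The groups did not overlap (0.17 ± 0.06, limma adjusted p = 0.129). Eif2s1 averaged 118 ± 3.44 FPKM in male and 108 ± 8.27 FPKM in female cultures (0.12 ± 0.07, adjusted p = 0.332). eIF2B recharges eIF2 with GTP, and none of its 5 subunit genes passed (adjusted p from 0.241 to 0.895), nor did any have an unadjusted p under 0.05. Over all tested genes these shares were 6.04% and 21.2%. Eif2b1, the gene of the alpha subunit, had the smallest p and averaged 47.8 ± 5.30 FPKM in male and 56.3 ± 6.98 FPKM in female cultures (-0.23 ± 0.11). By mean FPKM over the 8 libraries the subunits ranged from 10.5 for Eif2b3 to 52.1 for Eif2b1, which is 4.95 times as much.

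All 4 eIF2 alpha kinases, which slow initiation under stress, had a difference on the female side, and none passed with limma or had an unadjusted p under 0.05. Among all 11263 tested genes 5706 were on the female side, 6.04% passed and 21.2% had such a p. Eif2ak1 (HRI, which responds to heme shortage) led by level, with 36.9 ± 2.49 FPKM in male and 41.8 ± 4.18 FPKM in female cultures (-0.17 ± 0.09, adjusted p = 0.315). Eif2ak3 (PERK, the kinase of endoplasmic reticulum stress) followed with 8.79 ± 0.700 FPKM in male and 8.89 ± 0.725 FPKM in female cultures (-0.016, adjusted p = 0.957). Its difference had the other sign under several alternatives, with 0.0045 under quantile normalization and 0.027 without male 1. Eif2ak2 (PKR, activated by double-stranded RNA) averaged 6.17 ± 0.812 FPKM in male and 6.93 ± 1.61 FPKM in female cultures (adjusted p = 0.709). Female 1 and female 2 held the highest values of Eif2ak2, at 8.64 and 7.95 FPKM. Eif2ak4 (GCN2, the sensor of amino acid shortage) was the lowest of the 4 at 1.12 ± 0.194 FPKM in male and 1.48 ± 0.451 FPKM in female cultures (adjusted p = 0.626). In order of level, Eif2ak1 stood above the rest in every library, whereas the ranges of Eif2ak3 and Eif2ak2 met (7.95 to 9.64 FPKM and 5.23 to 8.64 FPKM over the 8 libraries).

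eIF3 is the large scaffold that binds the small ribosomal subunit. Of its 13 subunit genes 11 had a difference on the female side, none passed, and 1 (Eif3l) had an unadjusted p under 0.05. The median difference was -0.089, beside -0.0038 over all tested genes, and the sizes ran from -0.20 to 0.038. Of all 11263 tested genes 5706 were on the female side, 6.04% passed and 21.2% had an unadjusted p under 0.05. Eif3l was at 213, 181, 176 and 192 FPKM in the male libraries 1 to 4, against 217, 218, 228 and 209.8 FPKM in female 1 to female 4. Male 1 reached the female range and the other male libraries lay below it (-0.20 ± 0.07, limma adjusted p = 0.125). Eif3l passed without male 1 (-0.25, adjusted p = 0.0314), without male 1 and female 3 (-0.23, adjusted p = 0.0355) and with quantile normalization (-0.24, adjusted p = 0.0275). The most abundant subunit gene, Eif3f, averaged 235 ± 20.8 FPKM in male and 253 ± 14.9 FPKM in female cultures (-0.11 ± 0.07, adjusted p = 0.456). Subunit levels lay within 4.51 times of each other, from 54.0 FPKM for Eif3j to 244 FPKM for Eif3f by mean over the 8 libraries. Eif3c, a core subunit, was the steadiest across libraries with a coefficient of variation of 2.54%, and Eif3k the least steady with 13.1%. The table holds the e subunit under the symbol Eif3el1, which RefSeq also lists as an older name of Eif3e, so which copy its reads came from is uncertain.

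**Figure D4:**
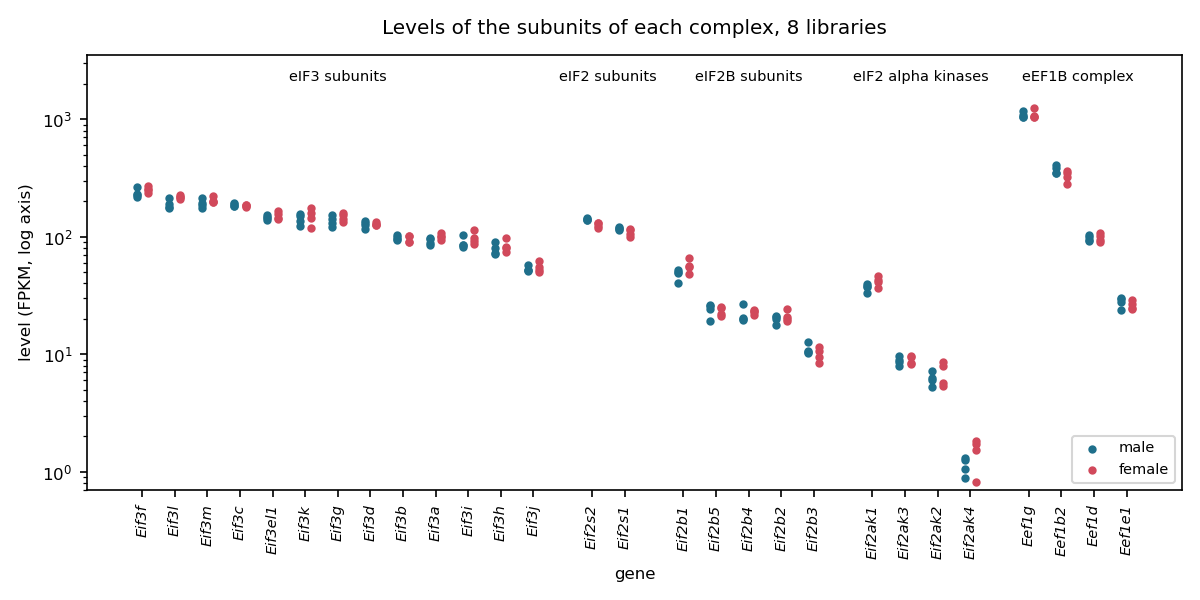
Levels in FPKM (log axis) of the genes grouped with eIF3, eIF2, eIF2B and eEF1B and of the eIF2 alpha kinases. Points are 4 male libraries (left of each pair) and 4 female libraries (right). Eef1e1, shown with eEF1B, is not a subunit of it. Genes within a group are sorted by mean level, and the male and female points of a gene lie on nearly the same level. In the eIF3, eIF2B and eEF1B groups the most and least abundant genes do not overlap. Neighbours in the order of level often do, as Eif2s2 and Eif2s1 do.

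At the cap, eIF4E binds the mRNA end, eIF4G bridges it to the ribosome and the helicase eIF4A opens secondary structure with help from eIF4B and eIF4H. Of 12 genes in this role 11 were tested. Eif4e1b was listed at 0 in all 8 libraries. Eif4b (ENSRNOG00000010103) was at 148, 134, 135 and 139.5 FPKM in the male libraries 1 to 4, against 186, 175, 166 and 176 FPKM in female 1 to female 4. Every male value lay below every female one. Means were 139 ± 6.51 FPKM in male and 176 ± 8.21 FPKM in female cultures, 1.26 times as high in female cultures (-0.33 ± 0.06, 95% interval -0.47 to -0.20, limma adjusted p = 0.0109). Markers of microglia and of differentiating oligodendrocytes were higher in the same female cultures, as given above, and their part in the levels of Eif4b and Eif2a was not tested.

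The other cap-binding genes did not pass. Eif4h, which like eIF4B assists the helicase, had a difference of the other sign (0.10 ± 0.06, limma adjusted p = 0.375). The helicase genes Eif4a1 and Eif4a2 averaged 605 ± 24.3 and 149 ± 4.02 FPKM in male and 577 ± 16.6 and 144 ± 4.50 FPKM in female cultures, with adjusted p of 0.524 and 0.708. The difference of Eif4a1, 0.069 here, was -0.00018 with quantile normalization. Eif4a3, a helicase gene of the exon junction complex rather than of cap binding, averaged 149 ± 10.0 FPKM in male and 133 ± 8.80 FPKM in female cultures (0.17 ± 0.07, adjusted p = 0.193). The cap-binding protein gene Eif4e averaged 165 ± 14.8 FPKM in male and 151 ± 14.0 FPKM in female cultures (adjusted p = 0.441). Its relatives Eif4e2 and Eif4e3 were at 82.1 ± 10.4 and 2.51 ± 0.434 FPKM in male and 81.4 ± 11.1 and 2.22 ± 0.403 FPKM in female cultures (adjusted p = 0.968 and 0.737). Among the eIF4G genes Eif4g2, whose product lacks the eIF4E-binding part, led with 253 ± 18.1 FPKM in male and 269 ± 8.71 FPKM in female cultures. The classical scaffold genes Eif4g1 and Eif4g3 stood at 35.9 ± 3.84 and 20.2 ± 0.902 FPKM in male and 34.7 ± 3.92 and 22.3 ± 2.87 FPKM in female cultures. None of the 3 passed (adjusted p from 0.495 to 0.848). In every library the order of these levels was Eif4g2, Eif4g1, Eif4g3.

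The inhibitors of eIF4E went in different directions and none passed. Eif4ebp1, which encodes the main binding protein released by mTOR, was at 40.9, 40.4, 39.95 and 39.6 FPKM in the male libraries 1 to 4, against 34.6, 26.1, 39.6 and 35.7 FPKM in female 1 to female 4. Male values were close together, and female 3 reached the lowest of them (0.25 ± 0.11, limma adjusted p = 0.225). Eif4ebp2 was more abundant, with 144 ± 15.1 FPKM in male and 153 ± 11.6 FPKM in female cultures (-0.092 ± 0.09, adjusted p = 0.598). Eif4enif1, the gene of the transporter that carries eIF4E into the nucleus, averaged 9.04 ± 1.12 FPKM in male and 10.9 ± 1.35 FPKM in female cultures (adjusted p = 0.286). Eif5a, whose product carries the amino acid hypusine and helps ribosomes past difficult peptide bonds, averaged 951.5 ± 64.9 FPKM in male and 862 ± 67.1 FPKM in female cultures (0.14 ± 0.07, adjusted p = 0.283). It passed with quantile normalization (0.13, adjusted p = 0.0439). Its paralog Eif5a2 averaged 20.4 ± 1.82 FPKM in male and 22.5 ± 1.26 FPKM in female cultures (-0.14 ± 0.09, adjusted p = 0.44). Eif6, which keeps the large ribosomal subunit free until it is needed, averaged 58.6 ± 7.17 FPKM in male and 58.2 ± 2.93 FPKM in female cultures (0.0023 ± 0.09, adjusted p = 0.993).

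The mRNAs of many elongation factors are known to begin with a pyrimidine tract, through which mTOR controls their translation. Of the 61 members 52 had 1 entry in the RefSeq promoter table, 3 had several (Eif1a, Eif4e2 and Eif4g3) and were not counted, and Eef1d, Eif3el1, Eif3h, Eif4b, Eif4e3 and Eif4ebp1 were not matched. The tract was searched on the strand of the gene, with its C within 5 bases of the annotated start, and was found in 10 of 52 members (19.2%) and in 9.61% of 24206 promoters. TATAA, searched on the same strand between 40 and 20 bases before the start, was found in 4 members (7.69%) and in 2.91% of promoters. These 4 were Eef1a1, Eef1b2, Eif1 and Eif4a1, all among the abundant members. In the sequences printed above the tract stands at the start of Eef1a1, Eef1b2 and Eif2a, and neither motif was found at the searched positions of Eef1a2, Eif1b or Eef2. The letters tataa and ctcttcc in the Eef2 sequence, which fit the motifs, lie further upstream than the positions searched. Eef2 was therefore counted among the members without the tract. Runs that fit the tract also lie outside the searched positions in the sequences of Eef1a2 and Eif1b. The 10 members with the tract had a median difference of 0.02, with 4 on the female side and 1 passing (Eif2a), and the 41 tested members without it had a median of -0.017, with 22 on the female side and 1 passing (Eef1a2). Of all tested genes 6.04% passed. Eif4b, which also passed, was not matched and is in neither group. Whether the tract bears on the differences was not tested. A match is a property of these letters and depends on where the start is annotated.

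Other genes of translation, from a list of 38 written for this pathway, came from the same test. All 36 found in the table were tested, 2 were higher in female cultures (beside 2.89% of all tested genes), none was higher in male ones (beside 3.14%), and the median difference was -0.029. Pabpc1, the gene of the poly(A)-binding protein that joins the tail of an mRNA to eIF4G, averaged 589 ± 19.0 FPKM in male and 728 ± 6.22 FPKM in female cultures (-0.31 ± 0.05, limma adjusted p = 0.00661). Pdcd4, which encodes an inhibitor of eIF4A, averaged 49.3 ± 3.32 FPKM in male and 62.4 ± 5.77 FPKM in female cultures (-0.33 ± 0.08, adjusted p = 0.0402). The list holds regulators, recycling and release factors and enzymes that modify eEF2 and eIF5A, and the other 34 did not pass.

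**Figure D5:**
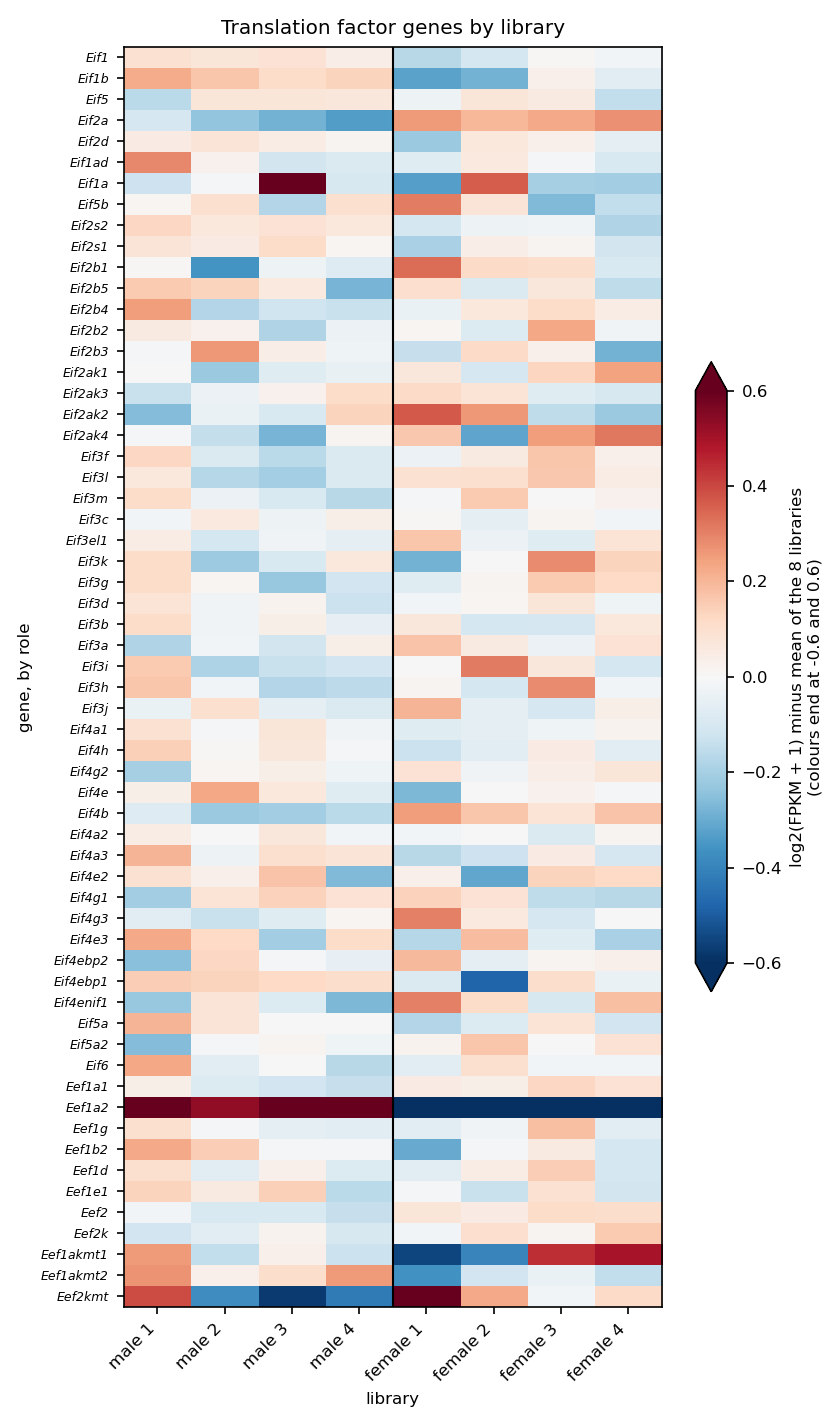
Deviation of each tested translation factor gene from its mean over the 8 libraries on the log2(FPKM + 1) scale, with male libraries left and female libraries right of the line. Eef1a2, Eif2a and Eif4b, which passed, split by sex. So do Eef2, Eif1, Eif1b, Eif2s2 and Eef1akmt2, which did not pass. Eef1akmt1 and Eef2kmt vary widely among libraries of the same sex. Colours end at deviations of -0.6 and 0.6.

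Across libraries the members took a nearly constant part of the summed FPKM, 2.07% to 2.13% in male and 2.00% to 2.14% in female libraries. The median member varied little, with a coefficient of variation of 9.03% over the 8 libraries, and 50 of 60 were under 15%. Levels ran from 1.30 FPKM for Eif2ak4 to 5446 FPKM for Eef1a1, with 24 members at 100 FPKM or more and 7 under 10. In male 1, 41 of the 60 were above their own mean, and in female 3, 39 were, against 20 to 33 in the other 6 libraries. These libraries were also those of the greatest relative depth, at 1 in male 1 and 0.982 in female 3.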

How the data were processed

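The authors deposited 1 table of FPKM values per gene for all 8 libraries. Trimmomatic and FastQC are named per the submitters' processing notes. The sources used here name no aligner, quantification tool, genome build or annotation, and absolute depth is unknown. FPKM values were analysed as log2(FPKM + 1) with limma 3.58.1 in R 4.3.3 (intensity trend, robust moderation, male against female, all 8 libraries), over the 11263 genes that averaged 1 FPKM or more, with Benjamini-Hochberg adjustment over all of them. The procedure was tested on simulated data with independent noise for each gene. Such data lack the deviations that genes of 1 library share. Paralog ratios were tested by exact two-sided permutation. Members were named where they passed, had the highest mean or the smallest p of their role, or were a paralog pair or eIF2 alpha kinase, which gave 31. Other members are named after their values were seen. The members, gene lists and alternatives were chosen with earlier results of these data known. Symbols were matched to RefSeq (GRCr8) for promoter sequences, whose coordinates are of that build.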

Additional observations from a re-analysis of the deposited data

Results flagged for a closer look

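In 3 of 68 sets of 4 library values, 1 library stood far from the other 3 of its group by Dixon's test, which chance gives in about 1 of 20 sets. Eef1g was at 1239 FPKM in female 3, where the other female libraries held 1045 to 1076 FPKM. Eif4e was at 131 FPKM in female 1, where the other female libraries held 156 to 160.4 FPKM. Eif5a2 was at 17.7 FPKM in male 1, where the other male libraries held 21.0 to 21.6 FPKM.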

How the results depend on the processing

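Eef1a2, Eif2a and Eif4b passed under every alternative run. Eif4b stood near the threshold in some of them. Its limma adjusted p was 0.0485 without trend and robust moderation and up to 0.0443 with 1 library left out. The count over all genes, 680, was 397 with the replicate block, 424 without trend and robust moderation, and 296 to 808 with 1 library left out. It was 692 with a minimum mean of 5 FPKM and 715 with quantile normalization. Without male 1 and female 3 it was 882, and with relative depth as a covariate 483. Male-higher members, 1 in the main test, numbered 2 with a minimum mean of 5 FPKM, 3 with quantile normalization, 2 without male 1 and female 3, and 1 to 2 with 1 library left out. Female-higher members, 2 in the main test, numbered 5 without male 1 and female 3, 4 with relative depth as a covariate, and 2 to 5 with 1 library left out. Leaving out male 1 and female 3 together and the depth covariate were chosen after seeing the data. The Eef1a1 to Eef1a2 log2 ratio differed by -2.10 without male 1 and female 3 (exact permutation p = 0.1, the smallest possible) and by -2.20 with the replicate block (exact sign-flip permutation p = 0.125, the smallest possible). The deviations of same-numbered libraries were at most weakly correlated (-0.112, 0.134, -0.146 and 0.0686), and the main test did not pair by number. Weak correlations cannot settle whether same-numbered cultures shared a litter or a preparation, which the labels do not give.

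Small differences changed sign, and the cause was not tested. With quantile normalization they were 0.0045 for Eif2ak3, -0.00018 for Eif4a1, -0.015 for Eif4e2 and -0.026 for Eif6. Without male 1 and female 3 they were 0.0058 for Eef1g, 0.00047 for Eif2ak3 and -0.080 for Eif6. With relative depth as a covariate they were 0.035 for Eif2ak3, -0.061 for Eif4e2 and -0.037 for Eif6. With 1 library left out they ran from -0.052 to 0.041 for Eef1g, -0.055 to 0.027 for Eif2ak3, -0.088 to 0.10 for Eif4e2 and -0.075 to 0.058 for Eif6. With 4 libraries a group and no counts, precision differs between members, with standard errors from 0.052 to 0.26.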

Other observations

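Of the genes within 3 places of Eef1a2, Eif2a or Eif4b in the RefSeq order, 8 were tested and 2 passed, where 6.04% of all tested genes did, and these 2 are named after their values were seen. Chrna4, which encodes a nicotinic acetylcholine receptor subunit and lies 2 genes from Eef1a2, averaged 29.8 FPKM in male and 50.1 FPKM in female cultures (-0.72 ± 0.10, limma adjusted p = 0.00256). Tns2, which encodes a focal adhesion protein and is the next gene to Eif4b, averaged 5.76 FPKM in male and 10.3 FPKM in female cultures (-0.73 ± 0.15, limma adjusted p = 0.0193).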
